A study of Homo sapiens with 30 samples.

Results

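BRD8 was depleted in SW480, a human colorectal cancer cell line, and gene expression was compared with that of cells given a control siRNA. The comparison holds 9 of the 30 libraries of the series, chosen by their labels: 3 with siControl, 3 with siBRD8-6 and 3 with siBRD8-36, which are separate siRNAs against BRD8. All were SW480 cells kept in Leibovitz's L-15 medium with fetal bovine serum and antibiotics, transfected with 10 nM siRNA by Lipofectamine RNAiMAX and harvested at 48 h, with no agent besides the siRNA. The other 21 libraries were SW480 cells given either of 2 siRNAs against TIP60 (siTIP60-2, siTIP60-11) and the same 5 treatments in HCT116, another colorectal cancer line. The SW480 libraries with TIP60 siRNAs also enter the estimate of the spread between libraries, and otherwise these libraries are used only where the BRD8 response was tested against them. RNA was read as single ends of 60 bases after a strand-specific preparation from 100 ng of total RNA. The labels do not say whether the 3 libraries of a group came from separate cultures, and p-values reflect only how these samples varied, which may be technical variation. In such bulk RNA, fewer cells expressing a gene and less of its RNA per cell cannot be told apart.

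BRD8 is a bromodomain protein of the TIP60 complex, also called NuA4, which acetylates histones H4 and H2A and exchanges the histone variant H2A.Z at promoters. The catalytic subunit, TIP60, is encoded by KAT5, and the complex is built on the scaffold proteins EP400 and TRRAP. It is known for roles in transcription activation by E2F and other factors and in DNA repair. In a dividing cell, replication genes are induced by E2F as S phase begins, and mitotic genes follow later under B-MYB, FOXM1 and the DREAM complex, at promoters that often hold a cell cycle homology region and CCAAT boxes. In colorectal cancer cells such as SW480, loss of APC keeps WNT signalling through beta-catenin active.

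Rounded expected counts summed to 7.07 to 7.69 M per library in the controls, 8.21 to 11.7 M with siBRD8-6 and 8.76 to 10.0 M with siBRD8-36, so the controls were the shallowest. Ribosomal protein genes took 10.4 to 10.8% of control counts, 8.41 to 8.60% with siBRD8-6 and 7.63 to 9.49% with siBRD8-36. The summed level of 8 epithelial markers was 3902 to 3984 CPM in control, 5164 to 5759 with siBRD8-6 and 5699 to 5904 with siBRD8-36. CPM are counts scaled to library size. Summed marker levels use the plain library total, and levels of single genes use the effective library size. PTPRC and TYROBP of leukocytes, COL1A2, COL3A1, DCN and LUM of fibroblasts and CDH5 and KDR of endothelium had a count of 0 in all 9 libraries. The intestinal marker CDX1 was at 0 in the controls, while CDX2, EPCAM and the keratins KRT8, KRT18 and KRT19 were detected in every library. In control replicate 1, KRT8, KRT18 and KRT19 had 13710, 10757 and 3460 counts and EPCAM had 1874. The epithelial sum therefore mostly reflects these keratins. Summed levels were 7.64 to 8.32 CPM in control, 14.7 to 17.4 with siBRD8-6 and 5.57 to 6.73 with siBRD8-36 for 7 fibroblast markers, and 0.528 to 2.12, 1.95 to 2.47 and 5.705 to 6.94 CPM for 8 leukocyte markers. These shifts came mostly from COL1A1 and PDGFRB (4 to 8, 27 to 74 and 5 to 6 counts) and from CD68 (0 to 3, 4 to 9 and 29 to 51 counts), and their part in the results was not tested.

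BRD8 itself (ENSG00000112983, chromosome 5, 138139766 to 138178986, minus strand of GRCh38, protein-coding) stood at 59.2, 51.3 and 53.5 CPM in the control libraries, 12.3, 13.9 and 14.1 with siBRD8-6 and 12.2, 11.5 and 10.97 with siBRD8-36. The depleted groups did not overlap the controls, and 24.5% and 21.2% of the control level remained. The log2 fold changes were −2.02 and −2.24 (quasi-likelihood test of edgeR, adjusted p = 5.05e-16 and 4.82e-17), and their difference, 0.22, did not pass the test (adjusted p = 0.107). With TPM values the mean BRD8 change was smaller, −1.49 with log2(TPM + 1) and −1.72 after centring, against −2.13 here. Throughout, a gene is said to have risen or fallen if siBRD8-6 and siBRD8-36 shifted it the same way and the weaker of its p-values, after Benjamini-Hochberg adjustment over the 15277 genes tested, was under 0.05. A change is the mean of the log2 fold changes with siBRD8-6 and siBRD8-36 unless each is given. Both comparisons use the same 3 control libraries, so they are not independent of each other.

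Of the 18 subunits listed for the TIP60 complex, 3 fell and 2 rose, against 14.5% and 13.3% of all genes tested. Besides BRD8, YEATS4, a histone acyl-lysine reader, fell from 56.4, 52.4 and 52.3 CPM to 32.8, 37.2 and 30.3 with siBRD8-6 and 19.002, 15.8 and 17.5 with siBRD8-36 (−1.16, SE 0.0733, adjusted p = 1.87e-07). All 6 depleted libraries lay below the controls, and the fall was larger with siBRD8-36 (difference 0.93, adjusted p = 1.71e-09). The actin-related subunit ACTL6A fell by 0.32, the chromodomain subunit MORF4L1 rose by 0.28 and the scaffold TRRAP rose by 0.28. The rise of MORF4L1 was called under every alternative run. With TPM values ACTL6A stood at 0.04, and TRRAP was not called after centring of the TPM values, after a correction for transcript length, without control replicate 2 (0.26) or without siBRD8-36 replicate 3 (0.23). KAT5 had 38.04, 41.6 and 38.997 CPM in control, 39.5, 41.8 and 43.2 with siBRD8-6 and 29.2, 29.1 and 30.7 with siBRD8-36, and was not called (adjusted p = 0.583).

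Across the genome, 7952 genes (52.1%) passed the test with siBRD8-6 and 8678 (56.8%) with siBRD8-36. At least 2-fold changes were fewer: 1346 genes (8.81%) with siBRD8-6, 796 higher (5.21%) and 550 lower (3.6%), and 1965 (12.9%) with siBRD8-36, 914 higher (5.98%) and 1051 lower (6.88%). Both siRNAs together called 4253 genes (27.8%), 2033 higher (13.3%) and 2220 lower (14.5%). The shared changes had a median size of 0.60 on the log2 scale, and 451 genes (2.95%) changed at least 2-fold with each siRNA, 262 higher (1.71%) and 189 lower (1.24%). Groups that did not overlap, with all 6 depleted libraries beyond all 3 controls, were seen for 5376 genes (35.2%) and for 4116 of the 4253 called. DESeq2 called 3622 genes. The split depended on the scaling: 2963 were higher and 1480 lower when counts were scaled by library totals alone, and 3220 and 560 with TPM, where the median change of all genes tested was 0.11 and 0.23 in place of −0.00. After each library's TPM values were centred on their median, 2682 genes were called, 1235 higher and 1447 lower.

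**Figure D1:**
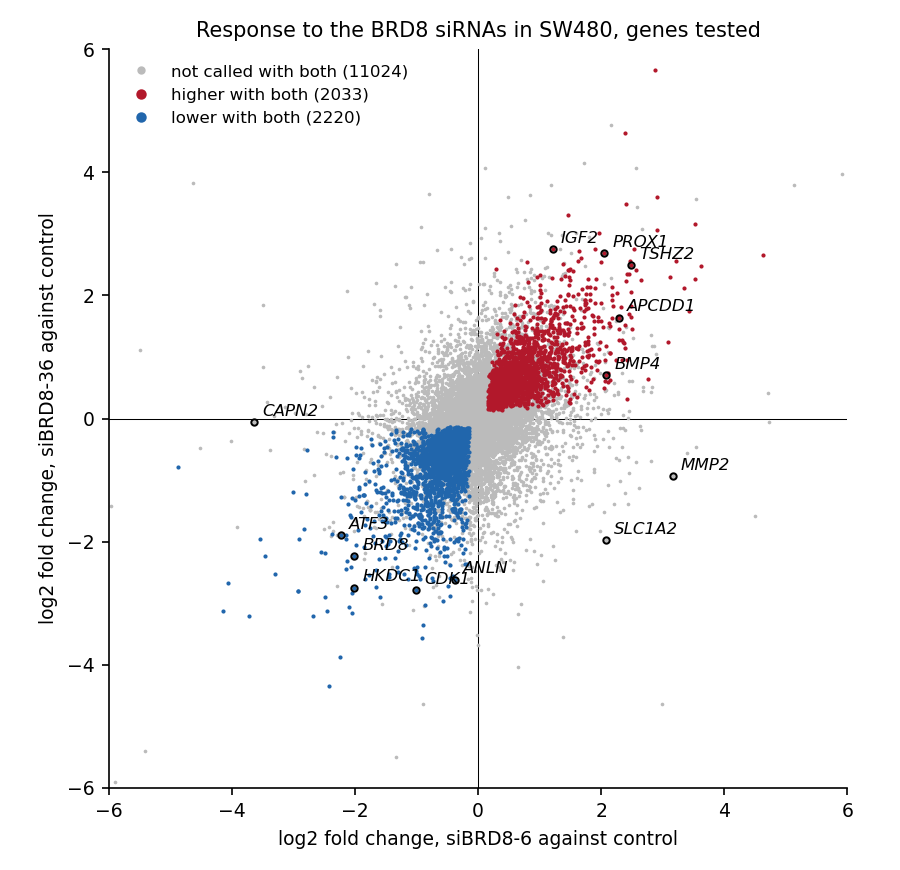
Log2 fold change of each gene tested with siBRD8-6 (horizontal) and siBRD8-36 (vertical) against the same 3 control libraries; red, higher with both (2033); blue, lower with both (2220); grey, not called with both; 18 genes lie outside the axes. The called genes fall in the lower left and upper right by the rule of the call, and CAPN2, MMP2 and SLC1A2 lie far from the diagonal.

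The strongest shared rises, ranked by the smaller of both changes, included genes with low and with high control levels. TSHZ2, a zinc finger transcription factor of the teashirt family (chromosome 20, 52972407 to 53495330, plus strand), stood at 3.16, 4.22 and 4.03 CPM in the control libraries, 19.7, 21.5 and 22.7 with siBRD8-6 and 22.5, 19.98 and 21.6 with siBRD8-36 (2.49, SE 0.131, adjusted p = 2.07e-13). PLEKHB1, a membrane protein with a pleckstrin homology domain, stood at 6.18, 6.47 and 5.23 CPM in the control libraries, 33.5, 30.9 and 31.3 with siBRD8-6 and 33.2, 29.3 and 28.7 with siBRD8-36 (2.38, SE 0.122, adjusted p = 1.99e-13). For both genes the libraries of the 2 siRNAs overlapped and every depleted library lay above the controls. PROX1, a homeobox transcription factor that WNT signalling induces in colorectal tumours (chromosome 1, 213983181 to 214041502, plus strand), stood at 14.01, 13.1 and 14.6 CPM in the control libraries, 58.2, 56.2 and 58.3 with siBRD8-6 and 77.2, 90.03 and 101 with siBRD8-36 (2.37, SE 0.0915, adjusted p = 1.25e-14). APCDD1, a membrane protein that inhibits WNT ligands (chromosome 18, 10454628 to 10489948, plus strand), was far more abundant than TSHZ2, PLEKHB1 and PROX1, with 176, 178 and 178 CPM in the control libraries, 845, 891 and 852 with siBRD8-6 and 519, 570.4 and 564 with siBRD8-36 (1.96, SE 0.0504, adjusted p = 5.59e-18). Its rise was larger with siBRD8-6, and that of PROX1 with siBRD8-36 (differences 0.65 and −0.63 between the siRNAs, adjusted p = 2.80e-11 and 6.53e-08).

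EHF, an ETS factor of epithelial cells, rose from 7.96 ± 0.664 to 26.7 ± 2.56 and 30.3 ± 4.63 CPM (mean ± SD, n = 3, siBRD8-6 then siBRD8-36). The adhesion molecule gene CEACAM1 rose from 2.65 ± 0.464 to 7.69 ± 0.114 and 8.43 ± 2.18, and CEMIP, needed for hyaluronan breakdown, from 7.195 ± 1.27 to 32.6 ± 2.31 and 22.2 ± 3.36. NTRK2, the receptor for brain-derived neurotrophic factor, rose from 5.13 ± 1.40 to 26.7 ± 3.66 and 14.7 ± 0.338. The group was completed by the secreted protein genes AZGP1 (2.01) and ISM2 (2.09), the junction protein gene JCAD (2.07) and PLPPR4, related to lipid phosphatases (1.77). Each of these 12 kept its call under every alternative listed in the closing section.

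Among the genes that fell most after BRD8, HKDC1, a hexokinase domain protein (chromosome 10, 69220303 to 69267559, plus strand), went from 27.5, 25.3 and 32.4 CPM to 6.37, 6.57 and 7.92 with siBRD8-6 and 4.94, 3.44 and 4.19 with siBRD8-36 (−2.38, SE 0.111, adjusted p = 2.10e-12). NT5E, the ecto-nucleotidase CD73 that makes adenosine outside the cell (chromosome 6, 85449584 to 85495791, plus strand), stood at 149, 146 and 154 CPM in the control libraries, 21.9, 19.3 and 22.1 with siBRD8-6 and 42.6, 36.2 and 50.4 with siBRD8-36 (−2.31, SE 0.0769, adjusted p = 2.07e-13). ATF3, a stress-induced transcription factor (chromosome 1, 212565334 to 212620777, plus strand), stood at 65.6, 69.998 and 74.3 CPM in the control libraries, 16.3, 12.7 and 15.6 with siBRD8-6 and 17.9, 19.9 and 18.4 with siBRD8-36 (−2.06, SE 0.0695, adjusted p = 1.40e-15). For each of the 3 the highest depleted library was below the lowest control. The kinase gene DCLK1 fell from 168 ± 3.33 to 59.1 ± 0.890 and 52.99 ± 2.55, the ubiquitin ligase gene RNF6 from 142 ± 8.20 to 37.98 ± 4.93 and 49.5 ± 2.85, and SLC26A4, which encodes the anion exchanger pendrin, from 80.9 ± 2.69 to 19.1 ± 0.773 and 27.1 ± 4.17. GOLT1B of Golgi transport (−1.89), the DNA glycosylase gene NEIL3 (−1.78) and LETM2 (−1.59) fell as well, together with CDKN3 and CENPK of the cell cycle.

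**Figure D2:**
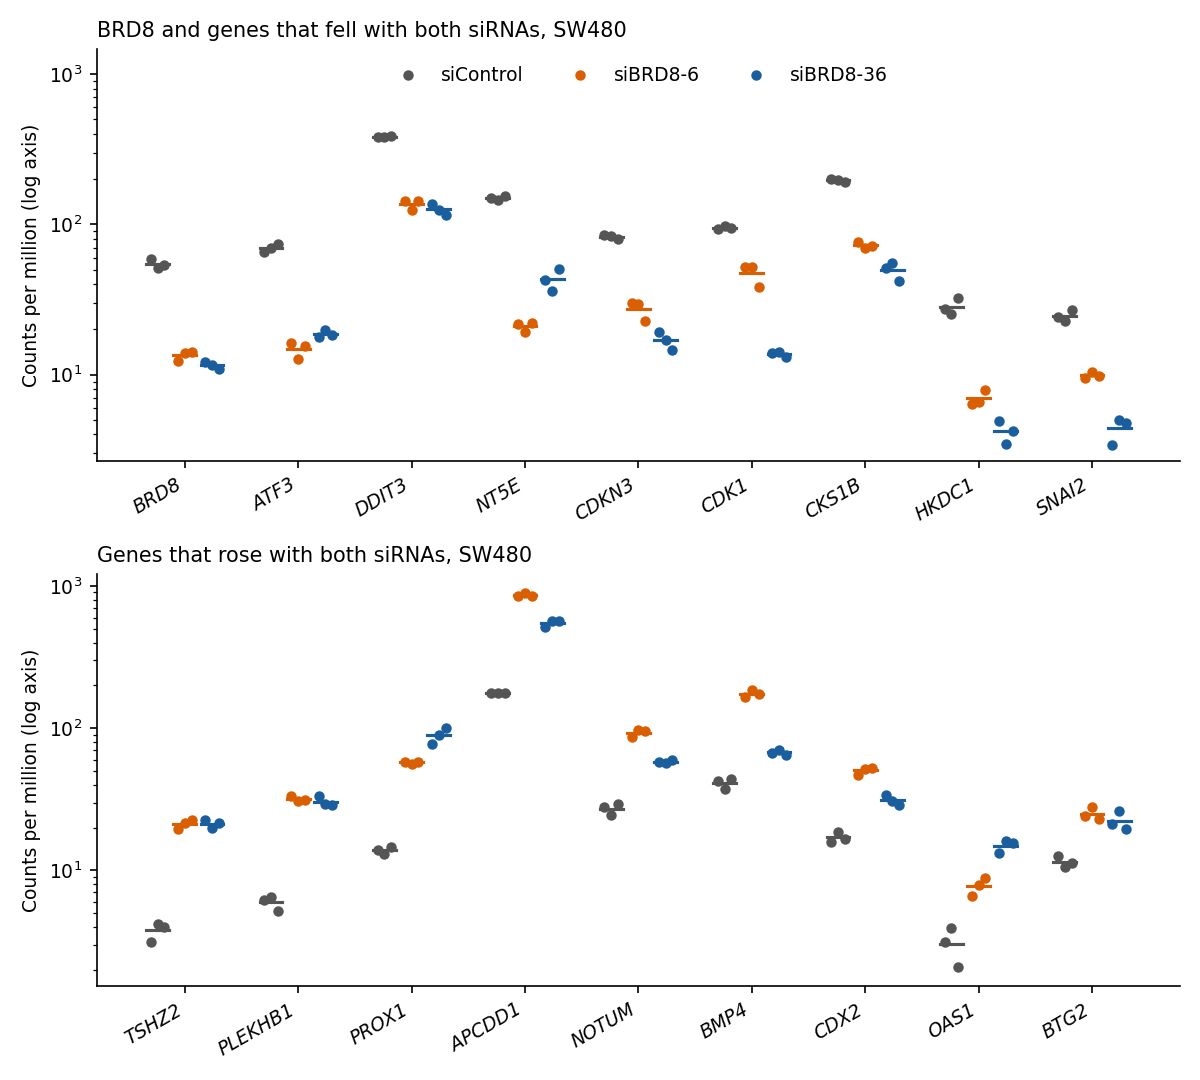
CPM on a log axis in each of the 9 SW480 libraries; points are libraries, bars are means of 3, grey is siControl, orange siBRD8-6 and blue siBRD8-36. BRD8 and the genes of the upper panel lie below their controls in all 6 depleted libraries and those of the lower panel lie higher than theirs; CDK1, NT5E and BMP4 are among those whose siRNA groups do not overlap.

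Genes of DNA replication fell broadly. Of 16 genes that license origins, which load the replicative helicase before S phase, 12 fell and none rose (median −0.76, against −0.00 over all genes tested). Of all genes tested 14.5% fell and 13.3% rose, which is the background for the list counts that follow. CDC6, the helicase loader, stood at 101, 113 and 111 CPM in the control libraries, 53.6, 56.98 and 50.7 with siBRD8-6 and 19.2, 19.2 and 19.7 with siBRD8-36 (−1.75, SE 0.0587, adjusted p = 3.02e-12). The groups did not overlap, and siBRD8-36 gave the lower level in every library. ORC6 of the origin recognition complex fell by 1.53 and MCM10, a helicase activator, fell by 0.95. The MCM10 call was lost with TPM, after centring of the TPM values and without control replicate 3 (−0.86). The helicase subunits MCM4 (−0.81), MCM5 (−0.72) and MCM7 (−0.74) fell, while MCM2 changed by −0.12 and −1.98 with siBRD8-6 and siBRD8-36 and was not called.

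At the replication fork 23 of 35 genes fell and none rose (median −0.65), against 14.5% and 13.3% of all genes tested. CDC45, part of the active helicase, fell from 17.99, 21.4 and 22.4 CPM to 8.17, 11.1 and 11.1 with siBRD8-6 and 4.75, 5.33 and 5.39 with siBRD8-36 (−1.50, SE 0.111, adjusted p = 3.01e-07). RFC4, a subunit of the clamp loader, stood at 122, 126 and 125 CPM in the control libraries, 54.7, 57.1 and 54.8 with siBRD8-6 and 49.2, 45.2 and 39.6 with siBRD8-36 (−1.32, SE 0.0577, adjusted p = 3.80e-13). The sliding clamp gene PCNA (−1.17), the primase gene PRIM1 (−1.16) and GINS2 (−1.17) fell too. All 8 genes of deoxynucleotide synthesis fell (median −1.08), among them DCK, which salvages deoxynucleosides, from 48.2, 49.1 and 48.9 CPM to 15.02, 16.9 and 14.9 with siBRD8-6 and 24.5, 22.8 and 16.9 with siBRD8-36. TYMS, the thymidylate synthase, fell by 1.33 and the ribonucleotide reductase subunit gene RRM2 fell by 1.02. DCK fell more with siBRD8-6 and TYMS with siBRD8-36.

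Regulators of the G1/S transition moved less uniformly: 7 of 22 fell (31.8%) and 1 rose (4.55%), against 14.5% and 13.3% of all genes tested (median −0.41). The cyclin A gene CCNA2 fell from 155, 148 and 149 CPM to 76.7, 85.02 and 73.3 with siBRD8-6 and 50.3, 52.1 and 46.2 with siBRD8-36 (−1.28, SE 0.0565, adjusted p = 1.18e-11), E2F1 fell by 0.80 and MYBL2, which encodes B-MYB, fell by 0.82. The riser was the cyclin E gene CCNE1 (0.52), outside the rule for named genes and picked after its values were seen. Its call was lost with DESeq2, and at least 1 library left out ended it. With TPM the counts of fallen genes were 4 for licensing, 11 for the fork (with 1 higher), 5 for deoxynucleotide synthesis and 1 for G1/S (with 2 higher). After centring they were 9, 18, 8 and 6.

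Genes of mitosis fell in most cases. Of 28 mitotic regulators 25 fell and none rose (median −1.05), and of 45 genes of the spindle, kinetochore and chromosome condensation 40 fell and none rose (median −1.10). Among all genes tested, 14.5% fell and 13.3% rose. CDK1, the mitotic kinase, stood at 92.7, 96.98 and 95.2 CPM in the control libraries, 52.04, 52.1 and 38.1 with siBRD8-6 and 13.96, 14.2 and 13.1 with siBRD8-36 (−1.90, SE 0.0756, adjusted p = 2.93e-10). Its level with siBRD8-36 was below that with siBRD8-6 in every library (difference 1.77, adjusted p = 2.63e-14). CKS1B, a CDK subunit, stood at 199.7, 198 and 191 CPM in the control libraries, 76.8, 69.9 and 71.4 with siBRD8-6 and 51.3, 55.1 and 42.2 with siBRD8-36 (−1.71, SE 0.0658, adjusted p = 3.87e-13). CDKN3, which removes an activating phosphate from CDKs, fell by 1.95, and the kinases AURKA (−1.39), PLK1 (−0.78) and TTK (−1.15), the B cyclins CCNB1 (−1.01) and CCNB2 (−1.20), the anaphase activator CDC20 (−0.996) and the transcription factor FOXM1 (−0.77) fell as well.

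Kinetochore genes included CENPK, at 32.5, 28.7 and 29.1 CPM in the control libraries, 9.98, 10.9 and 7.16 with siBRD8-6 and 9.79, 6.88 and 7.18 with siBRD8-36 (−1.81, SE 0.110, adjusted p = 6.50e-11), and NUF2, at 35.6, 39.8 and 33.02 CPM in the control libraries, 17.9, 21.03 and 15.8 with siBRD8-6 and 5.53, 7.77 and 5.68 with siBRD8-36 (−1.76, SE 0.0993, adjusted p = 4.18e-08). The libraries of both siRNAs overlapped for CENPK, while NUF2 was lower in all 3 siBRD8-36 libraries than in any siBRD8-6 library. The cohesin protector SGO1 fell by 1.76, topoisomerase gene TOP2A fell by 1.19 and the survivin gene BIRC5 fell by 1.33. ANLN, the cytokinesis scaffold anillin, changed by −0.38 and −2.62, so its mean of −1.50 joins unequal changes. List medians were −0.73 with siBRD8-6 and −1.37 with siBRD8-36 for mitotic regulators and −0.65 with siBRD8-6 and −1.50 with siBRD8-36 for the spindle list. In the direct test, 28 of 28 and 41 of 45 were lower with siBRD8-36 than with siBRD8-6, and none was higher. That difference was called for 27% of all genes tested in this direction. With TPM 19 and 20 fell, and 22 and 33 after centring.

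The promoters of genes on these mitotic lists often held the same short motifs. Their shares are a property of the lists, chosen with earlier results known, and would be the same whichever listed genes fell. RefSeq start sites (GRCh38.p14) were matched by symbol for 21 of the mitotic regulators and 41 of the spindle list, and the 250 bases before each start were searched on both strands. TTTGAA, the core of the cell cycle homology region, was present in 43.3% of 30 mitotic regulator promoters and 44.4% of 45 spindle promoters, against 8.96% of 15578 promoters of genes tested and 13.3% of all 35116 promoters. CCAAT, the box bound by NF-Y, was present in 80% and 64.4%, against 32.8% of promoters of genes tested and 32.01% of all. Among all genes that fell, TTTGAA was in 12.003% of promoters and CCAAT in 37.8%, and among all that rose in 8.61% and 29.2%. The 18 licensing and 37 fork promoters held TTTGAA in 0% and 2.703% and CCAAT in 66.7% and 48.6%. High shares of CCAAT were thus not particular to the mitotic lists. TTCCCGC, a form of the E2F site, was in 27.8% and 21.6% of licensing and fork promoters, against 8.17% of promoters of genes tested and 5.52% of all. CCAAT read on the other strand can overlap TTGGCGC, the other E2F form searched. A match describes these letters and is not a binding site. Falls were also more frequent among genes of low GC content, as given below. Whether base composition enters the shares of fallen and risen genes was not tested.

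The 150 bases before the start site are printed for 4 mitotic genes that hold both motifs and for RFC4, a fork gene that holds an E2F form in their place, so that the layouts can be compared. Capitals mark the homology region core, the NF-Y box and the E2F form named above, and the last base is the one before the start. The windows lie at CKS1B at chr1:154974531-154974680, plus strand, CCNB2 at chr15:59104996-59105145, plus strand, PLK1 at chr16:23678739-23678888, plus strand, CDC20 at chr1:43358831-43358980, plus strand and RFC4 at chr3:186806483-186806632, minus strand. CCNB2, PLK1 and CDC20 lie outside the rule for named genes and were chosen after their values were seen.
CKS1B: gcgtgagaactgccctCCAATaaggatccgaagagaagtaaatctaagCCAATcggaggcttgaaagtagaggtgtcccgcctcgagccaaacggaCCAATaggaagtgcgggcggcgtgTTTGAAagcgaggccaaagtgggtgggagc
CCNB2: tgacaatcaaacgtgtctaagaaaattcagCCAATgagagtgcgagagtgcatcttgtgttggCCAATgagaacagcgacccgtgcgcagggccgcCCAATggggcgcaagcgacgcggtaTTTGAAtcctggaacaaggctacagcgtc
PLK1: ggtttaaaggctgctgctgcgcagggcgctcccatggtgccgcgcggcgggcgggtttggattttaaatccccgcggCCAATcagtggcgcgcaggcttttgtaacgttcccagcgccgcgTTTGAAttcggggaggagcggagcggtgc
CDC20: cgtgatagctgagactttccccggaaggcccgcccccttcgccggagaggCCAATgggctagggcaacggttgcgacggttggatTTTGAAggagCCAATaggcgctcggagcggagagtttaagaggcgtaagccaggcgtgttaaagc
RFC4: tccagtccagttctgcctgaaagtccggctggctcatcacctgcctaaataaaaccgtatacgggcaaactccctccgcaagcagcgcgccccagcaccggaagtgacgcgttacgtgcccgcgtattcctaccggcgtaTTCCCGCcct
In CKS1B, CCNB2 and PLK1 the TTTGAA lies 30, 29 and 29 bases before the start, and the CCAAT nearest to the start lies 54, 54 and 73 bases before the start. In CDC20 the TTTGAA lies 65 bases before the start, between a pair of CCAAT boxes.

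Of 24 genes of recombination and Fanconi repair, which mend broken and crosslinked DNA, 16 fell and 1 rose (median −0.82, 4 lower with TPM and 12 after centring). The shares over all genes tested were 14.5% lower and 13.3% higher. FANCD2 fell from 29.5, 31.3 and 26.3 CPM to 15.4, 15.4 and 16.9 with siBRD8-6 and 9.02, 9.77 and 9.17 with siBRD8-36 (−1.26, SE 0.0911, adjusted p = 1.58e-07), and the nuclease gene EXO1 fell by 1.16. Replication-dependent histone genes split: of 36 tested among 56 listed, 16 fell and 3 rose (median −0.88). The fallers had low levels, such as H1-4, a linker histone, at 5.90, 5.90 and 5.53 CPM in the control libraries, 0.721, 1.89 and 0.590 with siBRD8-6 and 0.0969, 0.999 and 0.898 with siBRD8-36. H1-5 fell from 5.50 ± 0.229 to 0.899 ± 0.601 and 0.591 ± 0.432 CPM and H3C2 from 3.01 ± 0.931 to 0.575 ± 0.450 and 0.135 ± 0.0514. The risers were H2BC12 (1.26), H2BC5 (1.16) and H2AC6 (0.73), chosen after their values were seen. With genes kept only at 5 CPM or more in 3 libraries, 4 histone genes fell, 3 rose and the median was 0.02. Histone genes are near-identical copies, so their estimated counts can be divided between members.

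Inhibitors of proliferation showed no common direction, with 2 of 18 higher and 5 lower (median −0.23), against 13.3% and 14.5% of all genes tested. BTG2, an antiproliferative gene, rose from 12.6, 10.5 and 11.2 CPM to 24.2, 28.2 and 22.8 with siBRD8-6 and 21.3, 26.1 and 19.6 with siBRD8-36 (1.04, SE 0.116, adjusted p = 1.32e-06), and the groups did not overlap. PLK2 rose by 0.31. The stress genes GADD45A (−0.47), GADD45B (−0.62), PLK3 (−0.65) and KLF4 (−0.31) and the cyclin gene CCNG1 (−0.32) fell, none of them with TPM. With 1 library left out, 2 to 5 fell: the call of GADD45B was lost without each control or siBRD8-6 library and without siBRD8-36 replicate 2 (−0.67 to −0.59), and also with DESeq2 (−0.63), library totals alone (−0.51) and centred TPM, and that of PLK3 without siBRD8-36 replicate 3 (−0.62). PLK2, KLF4 and CCNG1 were named after their values were seen.

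WNT feedback and target genes rose. Of 22 tested among 25 listed, 14 rose and none fell (median 0.73, 0.84 with siBRD8-6 and 0.67 with siBRD8-36), with 16 higher with TPM and 13 after centring. By comparison, 13.3% of all genes tested rose and 14.5% fell. NOTUM, a secreted enzyme that inactivates WNT ligands, stood at 27.9, 24.6 and 29.1 CPM in the control libraries, 86.8, 97.2 and 95.2 with siBRD8-6 and 58.1, 57.2 and 59.4 with siBRD8-36 (1.44, SE 0.0690, adjusted p = 1.31e-11). BMP4, a secreted growth factor, stood at 42.8, 37.7 and 43.6 CPM in the control libraries, 165, 184 and 173 with siBRD8-6 and 67.5, 70.3 and 65.1 with siBRD8-36 (1.39, SE 0.0627, adjusted p = 9.21e-09). Both lay above their controls in all 6 depleted libraries and were higher with siBRD8-6 than with siBRD8-36 (differences 0.68 and 1.36). Of the negative feedback genes, AXIN2 (0.96), NKD1 (1.13), DKK4 (1.34) and the receptor-clearing ubiquitin ligase genes RNF43 (1.17) and ZNRF3 (0.83) rose, and of transcription factors ASCL2 (1.06), SOX9 (0.57), SP5 (0.84) and TCF7 (0.33) rose. LEF1 (0.08 and 0.71), TNFRSF19 (0.24 and 0.76) and CD44 (0.00 and −0.56) were not called. The genes of this list that rose included both inhibitors of the pathway and transcription factors induced by it.

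Epithelial genes rose more often than they fell. Of 26 junction and keratin genes 11 rose and 4 fell (median 0.16), against 13.3% and 14.5% of all genes tested. VIL1, the brush border protein villin, rose from 1.24, 1.12 and 0.747 CPM to 4.57, 6.57 and 4.38 with siBRD8-6 and 2.81, 3.44 and 2.39 with siBRD8-36 (1.87, SE 0.279, adjusted p = 6.38e-04). CDX2, the intestinal homeobox factor (chromosome 13, 27962137 to 27971139, minus strand), stood at 15.9, 18.6 and 16.7 CPM in the control libraries, 47.1, 52.1 and 52.3 with siBRD8-6 and 33.9, 30.6 and 29.02 with siBRD8-36 (1.22, SE 0.0826, adjusted p = 3.12e-08). Cingulin gene CGN rose by 1.08, the E-cadherin gene CDH1 by 0.96, the ETS factor gene ELF3 by 0.68 and the keratins KRT8, KRT18 and KRT19 by 0.41, 0.39 and 0.51. The epithelial marker EPCAM went the other way. It changed by −0.23 and was not called, though all 6 depleted libraries lay below the controls in scaled CPM. With plain library totals the EPCAM levels of the siBRD8-36 libraries overlapped the controls. CLDN1 (−0.83) and OCLN (−0.56) of tight junctions, the splicing factor gene ESRP1 (−0.60) and KRT80 (−0.58) fell, named after their values were seen. With TPM 13 rose and 0 fell, and after centring 8 rose and 1 fell. Among mesenchymal genes, the transcription factor SNAI2 fell from 24.3, 22.6 and 26.7 CPM to 9.50, 10.5 and 9.86 with siBRD8-6 and 3.39, 5.00 and 4.79 with siBRD8-36 (−1.89, SE 0.101, adjusted p = 5.85e-10), while fibronectin gene FN1 rose from 97.5 ± 4.04 to 227 ± 12.1 and 164 ± 13.9 and 3 more of 16 rose: COL4A2 (0.62), TGFBI (0.37) and MMP14 (0.30, named after its value was seen). The call of COL4A2 was lost without any 1 library other than siBRD8-36 replicate 3 (0.56 to 0.64), and with all libraries kept it was lost with DESeq2, thinned counts, GC offsets and length offsets. Of the 16 mesenchymal genes 6 rose with TPM, 2 with GC offsets and 2 to 4 with 1 library left out.

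**Figure D3:**
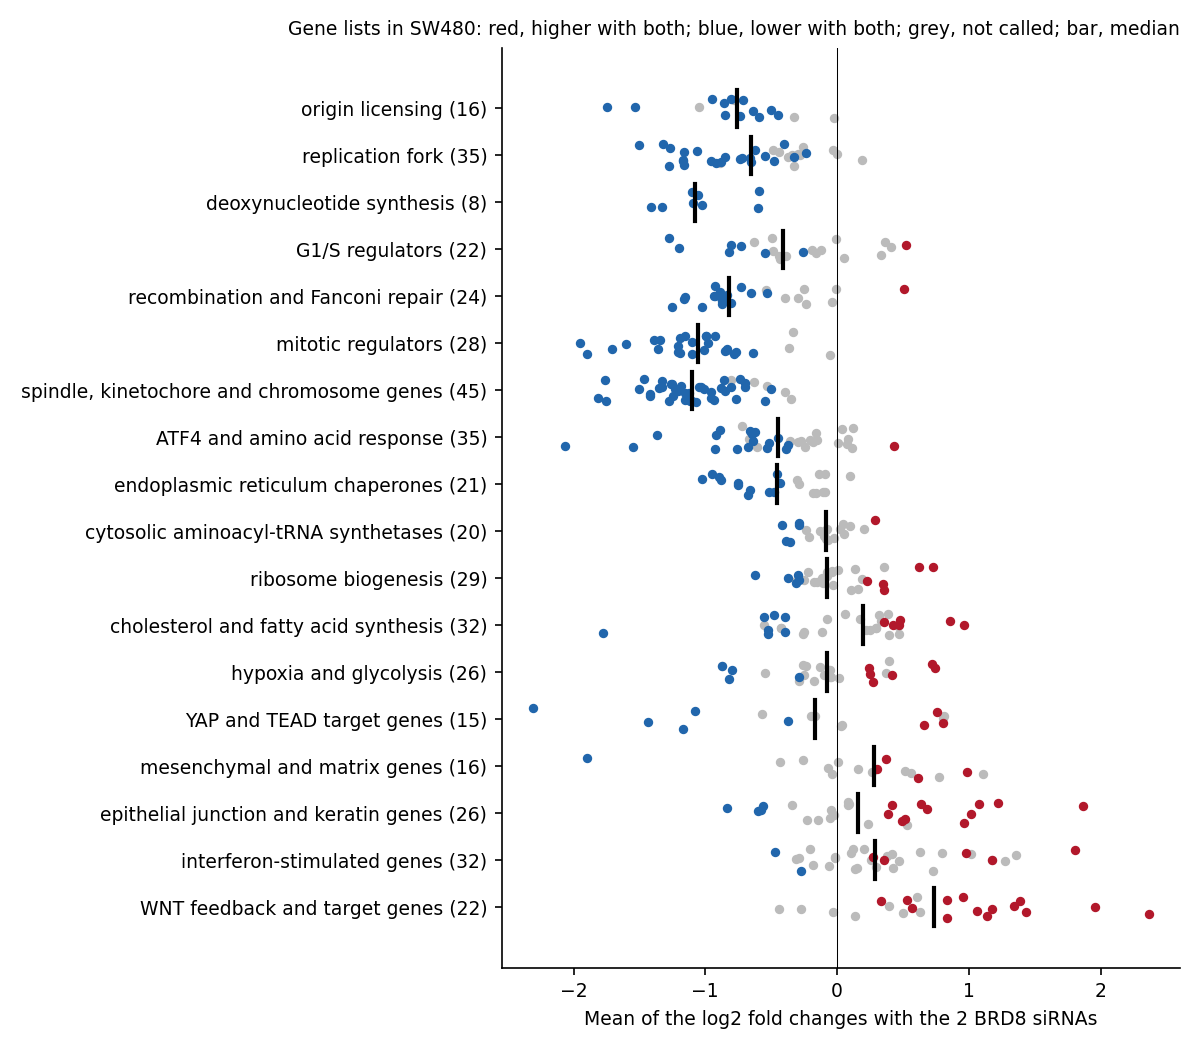
Mean of the log2 fold changes with the 2 BRD8 siRNAs for each tested member of 18 gene lists (number tested in parentheses); red, higher with both siRNAs; blue, lower with both; grey, not called; black bar, list median. The replication, repair and mitotic lists lie to the left of 0 and the WNT list to the right, while ribosome biogenesis, hypoxia and tRNA synthetase genes lie around 0.

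Stress genes controlled by ATF4, the transcription factor of the integrated stress response, were lower in 17 of 35 cases (median −0.45). The 1 higher was the glutamine transporter gene SLC1A5 (0.43, picked after its value was seen). Across all genes tested, 14.5% fell and 13.3% rose. DDIT3, the stress factor CHOP, stood at 382, 382 and 384 CPM in the control libraries, 142, 124 and 142 with siBRD8-6 and 137, 124 and 115 with siBRD8-36 (−1.55, SE 0.0513, adjusted p = 7.11e-16). PPP1R15A, which restores translation by directing dephosphorylation of eIF2 alpha, stood at 374, 382 and 389 CPM in the control libraries, 141, 115 and 142 with siBRD8-6 and 172, 156 and 168 with siBRD8-36 (−1.36, SE 0.0563, adjusted p = 1.84e-13). Every depleted library was below the controls of both genes. ATF4 itself fell by 0.39, the asparagine synthetase gene ASNS by 0.53 and the mTORC1 inhibitor gene DDIT4 by 0.92. The amino acid transporter genes SLC7A5 (0.57 and −2.01) and SLC7A11 (−0.14 and −1.08) were not called. With TPM 9 fell and 2 rose, and after centring 14 fell.

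Chaperones and folding factors of the endoplasmic reticulum fell in 12 of 21 cases and none rose, against 14.5% and 13.3% of all genes tested. The list median was −0.45 (−0.24 with siBRD8-6 and −0.67 with siBRD8-36). HSPA5, the chaperone BiP, stood at 2299, 2326 and 2269 CPM in the control libraries, 1569, 1538 and 1532 with siBRD8-6 and 1020.5, 989.7 and 996 with siBRD8-36 (−0.88, SE 0.0399, adjusted p = 3.10e-10). The order control, siBRD8-6, siBRD8-36 held without overlap, as it did for DNAJB9 (125 ± 12.9 to 79.7 ± 8.43 and 47.7 ± 5.97) and SEL1L (218 ± 4.85 to 168 ± 1.97 and 75.97 ± 8.85). XBP1, a transcription factor of the unfolded protein response, fell by 0.75. With TPM 4 fell and 1 rose, and 8 fell after centring. Of 20 cytosolic aminoacyl-tRNA synthetases 5 fell and 1 rose, against 14.5% and 13.3% of all genes tested. The riser, QARS1, lost its call without control replicate 1 (0.27). The list median was −0.08, its sign depending on the scaling, and with TPM 4 were higher and 0 lower.

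Of 32 interferon-stimulated genes 5 rose and 2 fell (median 0.29), with 27.8% of all genes tested called, 13.3% higher and 14.5% lower. OAS1, which senses double-stranded RNA, rose from 3.16, 3.94 and 2.09 CPM to 6.61, 7.90 and 8.85 with siBRD8-6 and 13.3, 15.98 and 15.6 with siBRD8-36 (1.81, SE 0.176, adjusted p = 5.17e-06), and IFIH1, the sensor MDA5, from 12.9, 10.4 and 13.3 to 22.96, 27.6 and 25.96 with siBRD8-6 and 28.99, 28.6 and 31.6 with siBRD8-36 (1.18, SE 0.108, adjusted p = 6.82e-08). HERC6 (0.98), IFITM3 (0.36) and STAT2 (0.27) rose, and IRF1 (−0.47) fell; IFITM3 and STAT2 were named after their values were seen. ISG15 stood at −0.12 and 0.38 and was not called. Of 12 tested NF-kappaB target genes, IER3 fell (−0.33) and no other was called. With TPM 10 interferon-stimulated genes rose and none fell, and after centring 3 rose and 1 fell. With 1 library left out, 3 to 5 rose: HERC6 was lost without control replicate 1 or 2 or siBRD8-6 replicate 1 or 3 (0.78 to 1.004), and the fall of IRF1 without any 1 control or siBRD8-6 replicate 3 (−0.48 to −0.47). With all libraries kept, HERC6 was lost with DESeq2, thinned counts and centred TPM, and IRF1 with DESeq2, library totals alone, no count filter, thinned counts and TPM.

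Of 32 lipid synthesis genes 6 rose and 7 fell, against 13.3% and 14.5% of all genes tested, while with TPM 10 rose and 2 fell and with library totals alone 10 and 7. FASN, the fatty acid synthase, rose from 333, 329 and 343 CPM to 469.9, 509 and 599 with siBRD8-6 and 696, 685 and 717 with siBRD8-36 (0.86, SE 0.0622, adjusted p = 3.36e-08), and the sterol reductase gene TM7SF2 rose by 0.96. ACAT2, a cytosolic thiolase, fell from 161, 168 and 169.7 CPM to 87.02, 87.4 and 85.4 with siBRD8-6 and 27.6, 28.97 and 25.2 with siBRD8-36 (−1.77, SE 0.0488, adjusted p = 4.23e-13). Glycolysis and hypoxia genes had 6 of 26 higher and 4 lower, a balance that turned with GC offsets (1 higher and 7 lower), length offsets (3 and 6) and centred TPM (3 and 5): PFKFB3 (0.74) rose, and NDRG1 (−0.87), ENO2 (−0.82) and VEGFA (−0.79) fell. Ribosome biogenesis genes had 5 of 29 in each direction, with POLR1A, the largest subunit of RNA polymerase I, at 0.73 and GNL3, nucleostemin, at −0.62, while with TPM 7 rose and 1 fell and with length offsets 3 and 7. Of 13 mitochondrially encoded mRNAs, MT-ND6 (−0.72), MT-CO1 (−0.26) and MT-ND1 (−0.26) fell; with TPM none of the 13 fell and 2 rose. With 1 library left out, 2 to 5 ribosome biogenesis and 3 to 6 hypoxia genes rose, and 1 to 4 mitochondrial mRNAs fell, with MT-ND6 lost without control replicate 2 or siBRD8-6 replicate 1 (−0.59 and −0.65) and MT-CO1 and MT-ND1 without siBRD8-6 replicate 3 (−0.23 and −0.22).

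Among 15 targets of YAP and TEAD, 5 fell (33.3%) and 3 rose (20%), against 14.5% and 13.3% of all genes tested. The same background applies to the IGF and ERK lists below. With TPM 3 YAP targets were called in each direction, and after centring 3 were lower and 1 higher. ANKRD1, a widely used readout of YAP activity, changed by −0.54 and −2.34, falling from 395, 403 and 414 CPM to 297, 269 and 270.4 with siBRD8-6 and 79.3, 82.6 and 77.99 with siBRD8-36. The receptor kinase gene AXL fell from 259.7 ± 7.18 to 154 ± 6.42 and 98.1 ± 6.29 CPM. The matricellular gene CCN1 changed by −0.28 and −2.06, and its call ended with TPM, after centring, with library totals alone and without control replicate 3 (−1.08) or siBRD8-6 replicate 2 (−1.14). LATS2 fell (−0.37), and TGFB2 (0.75), CRIM1 (0.80) and PTPN14 (0.66) rose, named after their values were seen. IGF2, an insulin-like growth factor, rose from 5.63, 6.47 and 6.72 CPM to 13.2, 14.8 and 15.3 with siBRD8-6 and 41.2, 37.96 and 47.97 with siBRD8-36 (1.98, SE 0.119, adjusted p = 8.44e-08), and IGFBP7 by 0.33, the 2 risers of 11 IGF genes tested (4 with TPM). Of 16 feedback genes of ERK signalling, SPRED1 (−0.66), FOSL1 (−0.61) and SPRED2 (−0.49) fell and PHLDA1 (0.30) rose. With TPM the list had 5 genes higher and 0 lower, and with library totals alone 5 higher and 1 lower. SPRED2 was lost without control replicate 1 or 3 or siBRD8-6 replicate 1 (−0.50 to −0.45), and PHLDA1 with length offsets.

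The siRNAs against BRD8 also differed from each other. In the direct test, which uses no control library, 8072 genes (52.8%) differed and 1683 (11%) did so at least 2-fold, 962 higher with siBRD8-6 (6.3%) and 721 lower (4.72%). CAPN2, a subunit of calpain (chromosome 1, 223701593 to 223776018, plus strand), stood at 507, 497 and 502 CPM in the control libraries, 42.7, 40.2 and 38.2 with siBRD8-6 and 472, 455 and 522 with siBRD8-36. It was lowered to 8.04% of the control level by siBRD8-6 and not called with siBRD8-36 (log2 fold changes −3.64 and −0.06, difference −3.59, adjusted p = 8.31e-25). In HCT116 the same siRNAs gave −3.62 and 0.07. MMP2, a gelatinase, stood at 2.33, 4.36 and 3.74 CPM in the control libraries, 29.6, 33.5 and 30.1 with siBRD8-6 and 2.13, 1.55 and 1.70 with siBRD8-36, and the glutamate transporter gene SLC1A2 at 8.65, 6.04 and 7.47 CPM in the control libraries, 28.6, 35.7 and 29.4 with siBRD8-6 and 1.65, 2.11 and 1.89 with siBRD8-36. Both moved in opposite directions with the siRNAs, as did ATP8A2 (−1.60 and 1.77) and PDE2A (−1.20 and 1.98), and NTM changed by 3.39 and −0.56. Whether such differences come from targets other than BRD8 was not tested.

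The direction of the shared changes went with base composition and transcript length. Among the quintile of genes with the lowest GC content, 5.43% rose and 25.6% fell, and among the quintile with the highest, 21.2% and 5.83%. By transcript length the shares were 4.71% and 18.2% in the shortest quintile and 21.6% and 10.3% in the longest. Per library, the median deviation from the control mean on the log2(CPM + 1) scale, highest minus lowest GC quintile, was −0.02, 0.01 and 0.01 in the controls, 0.17, 0.19 and 0.43 with siBRD8-6 and 0.50, 0.42 and 0.37 with siBRD8-36. With offsets that remove each library's GC trend, 4061 genes were called, 1932 higher and 2129 lower, with 37 of the spindle list lower, 26 of the mitotic regulators and 13 of the licensing genes, and 14 WNT genes higher. With length offsets 4242 were called, 1775 higher and 2467 lower.

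**Figure D4:**
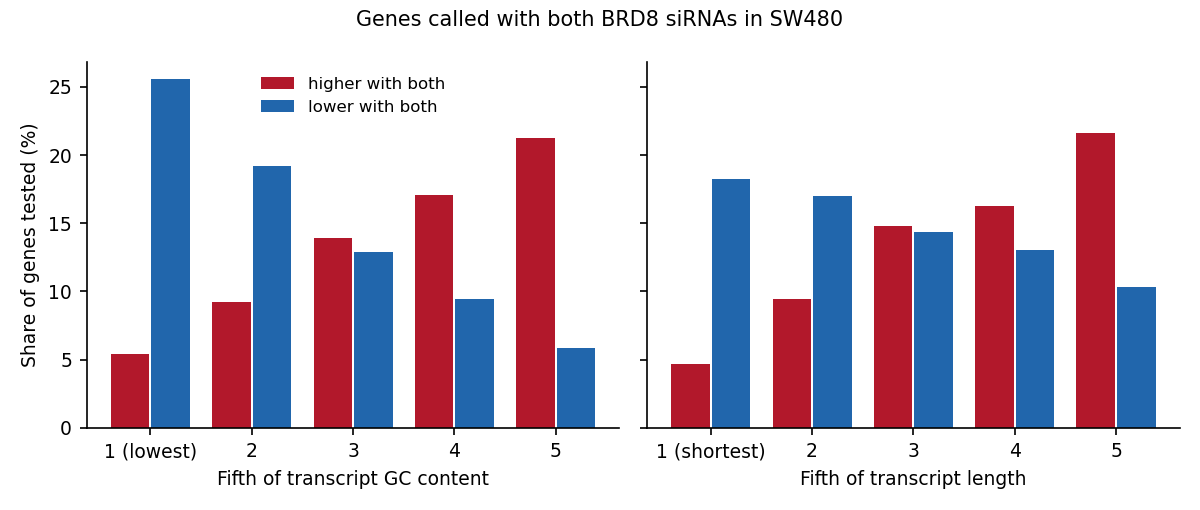
Share of tested genes called higher (red) or lower (blue) with both BRD8 siRNAs, by quintile of transcript GC content (left) and of transcript length (right). In GC the share that rose goes from 5.43% to 21.2% and the share that fell from 25.6% to 5.83%, and long transcripts also rose more often than short ones.

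By chromosome, 23.1% of the genes tested on chromosome 18 fell and 7.18% rose, and on chromosome 13 20.1% and 8.76%, while on chromosomes 17, 19 and 22 the shares were 11.5% and 18.02%, 9.55% and 15.3%, and 11.3% and 18.1%. Whether chromosomes differ beyond the trend with GC content was not tested. Protein-coding genes were called in 30.6% of cases, lincRNAs in 15.9% and processed pseudogenes in 13.3%. Calls went with abundance, from 9.65% in the lowest quintile of mean expression to 42.4% in the highest, and recovery at each level of abundance was not tested.

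The response was tested against TIP60 depletion in the same line, without use of the controls. Each BRD8 siRNA differed from each TIP60 siRNA in one direction for 1776 genes (11.6%), 878 higher (5.75%) and 898 lower (5.88%) after BRD8 depletion, and 156 (1.02%) by at least 2-fold, 71 higher (0.465%) and 85 lower (0.556%). With TPM the split was 556 higher and 303 lower. Genes lower with the BRD8 siRNAs included 34 of 45 of the spindle list, 17 of 28 mitotic regulators, 9 of 16 licensing genes, 15 of 35 fork genes and 13 of 24 repair genes, and no member of these lists was higher. The median changes against control of the spindle list were 0.04 with siTIP60-2 and −0.18 with siTIP60-11. For WNT genes they were 0.43 and 0.62, and 2 of 22 differed. Endoplasmic reticulum genes had medians of −0.76 and −0.88 with the TIP60 siRNAs, and 2 of 21 differed.

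Apart from KAT5 and BRD8, the differences named by rule included those of PTP4A3, a phosphatase, and PTGDS, the prostaglandin D synthase. PTP4A3 rose from 5.22, 4.92 and 5.83 CPM to 8.41, 9.24 and 9.95 with siBRD8-6 and 31.1, 31.1 and 30.7 with siBRD8-36 and changed by −0.91 and −0.76 with the TIP60 siRNAs. PTGDS changed by 1.28 and 1.80 with the BRD8 siRNAs and −2.12 and −0.62 with the TIP60 siRNAs. The noncoding transcripts AP002478.1 and LINC00973 were lower with the BRD8 siRNAs. AP002478.1 stood at 26.9, 27.3 and 24.5 CPM in the control libraries, 7.45, 8.79 and 8.09 with siBRD8-6 and 8.34, 9.32 and 7.18 with siBRD8-36, and LINC00973 changed by −1.19 and −1.15, against 0.56 and 0.85 with the TIP60 siRNAs.

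Against HCT116, the response to both BRD8 siRNAs differed in one direction for 2418 of 17411 genes (13.9%), 1590 higher in SW480 (9.13%) and 828 lower (4.76%). This split did not hold under several alternatives: 834 were higher and 1283 lower without control replicate 3 of SW480, 1107 and 1128 with DESeq2, 1215 and 1178 with RLE scaling, 1013 and 1148 without a count filter and 1163 and 1391 with a minimum of 5 CPM, while 1930 and 623 were called with library totals alone and 1771 and 288 with TPM. The HCT116 libraries were deeper, with 13.4 to 18.6 M counts against 7.07 to 11.7 M in SW480. With all libraries thinned to the smallest, 1507 genes differed, 883 higher in SW480 and 624 lower. Of the cell cycle lists, 4 of 16 licensing genes were higher in SW480 and 2 lower, and 1 of 28 mitotic regulators was higher and 3 lower. The counts were 2 of 45 in the spindle list (1 in each direction) and 3 of 35 at the fork, all higher, 2 of 22 at G1/S, both higher, and 0 of 8 for deoxynucleotide synthesis. Of the ATF4 list 15 of 35 were higher in SW480 than in HCT116 relative to control, that is, fell less or rose more, and 2 lower. Of histone genes 11 of 36 were lower in SW480 and none higher. A difference that missed the threshold does not show that the lines responded alike.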

How the data were processed

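RNA-seq of 15 SW480 libraries (5 siRNA groups of 3) gave the results, and 15 HCT116 libraries entered the test between lines. The authors deposited per-library RSEM gene tables with expected counts (estimated reads per gene, not whole numbers) and TPM (scaled for transcript length and library total). Per the submitters' processing notes, reads were handled with Trimmomatic 0.33, STAR 2.7.3a and RSEM 1.3.3 on hg38. For RSEM, neither the gene models nor its strand option is given in the sources used here, so overlapping antisense genes may share reads. Gene types and coordinates came from GENCODE 29, which held 58444 of the 60617 gene identifiers.

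Expected counts were rounded, genes with low counts were removed by edgeR's filterByExpr, libraries were scaled by TMM, and robust quasi-likelihood tests of edgeR 4.0.16 (R 4.3.3) were fitted to the 15 SW480 libraries together, which share one estimate of the spread, with Benjamini-Hochberg adjustment over 15277 genes. The spread was not equal between groups. Between pairs of replicates, chi-square per gene was 1.47 to 1.85 in the controls, 2.24 to 6.18 with siBRD8-6 and 3.31 to 9.56 with siBRD8-36. This measure also grows with depth, and what one shared estimate does to the p-values was not tested. For changes shared by both siRNAs the larger p was adjusted; differences between lines used a fit of all 30 libraries and 17411 genes, and differences from TIP60 the largest p of 4 contrasts. CPM values of single genes use the TMM-scaled totals, and the summed marker levels use the plain library totals. On simulated data 87 of 100 genes changed 1.5-fold and 100 of 100 changed 2-fold were recovered among 15016 genes, with 1 other gene called. The changed genes were drawn only from well-counted genes and changed equally with both siRNAs. All genes had one small, fixed spread between libraries, with no GC trend. Recovery and false calls under the spread of the real libraries were not tested.

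Alternatives were DESeq2 1.42.0, other scalings and count filters, thinned counts, a replicate block, limma 3.58.1 on log2(TPM + 1) and log2(TPM + 0.25), and each library left out. Offsets for GC content or transcript length and centring of TPM were chosen after seeing the data. Genes were named by rule: the 12 strongest shared protein-coding changes in each direction with a mean count of at least 50, up to 4 called members of each of 25 gene lists, and 3 genes in each direction for each difference between siRNAs, lines and complexes. Members and lists were chosen with earlier results of these data known. Further genes given as examples of a list lie outside this rule and were chosen after their values were seen. RefSeq promoters were matched by symbol. Some members of the lists are not reported here by name.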

Additional observations from a re-analysis of the deposited data

Results flagged for a closer look

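The 6 responses named by the rule for line differences differed between SW480 and HCT116 in a direct test of the difference (edgeR interaction term in the fit of all 30 libraries, adjusted over 17411 genes). PLPPR4, related to lipid phosphatases, changed by 1.91 and 1.75 with siBRD8-6 and siBRD8-36 in SW480 and by −0.34 and −1.39 in HCT116 (mean difference 2.7 on the log2 scale, adjusted p = 3.82e-08). SPTSSB, a small subunit of serine palmitoyltransferase, changed by −0.34 and −0.24 with siBRD8-6 and siBRD8-36 in SW480 and by −2.71 and −2.84 in HCT116 (mean difference 2.48 on the log2 scale, adjusted p = 7.97e-10). SPARC, a matricellular protein, changed by 1.34 and 0.33 with siBRD8-6 and siBRD8-36 in SW480 and by −2.58 and −2.03 in HCT116 (mean difference 3.14 on the log2 scale, adjusted p = 2.09e-05). BCL2L15, a BCL2 family member, changed by 0.11 and −0.89 with siBRD8-6 and siBRD8-36 in SW480 and by 3.09 and 3.14 in HCT116 (mean difference −3.5 on the log2 scale, adjusted p = 2.31e-08). RASGRP3, a RAS guanine nucleotide exchange factor, changed by −1.05 and 0.46 with siBRD8-6 and siBRD8-36 in SW480 and by 1.75 and 3.10 in HCT116 (mean difference −2.72 on the log2 scale, adjusted p = 2.77e-04). WNT9A, a WNT ligand, changed by −2.26 and −0.54 with siBRD8-6 and siBRD8-36 in SW480 and by 0.13 and 2.18 in HCT116 (mean difference −2.55 on the log2 scale, adjusted p = 1.11e-12). The SPTSSB difference was not called with TPM, and that of RASGRP3 not with thinned counts. No cause of these differences was tested.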

How the results depend on the processing

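For the genome-wide comparisons, counts of called genes not printed here stayed within 1.5 times those reported, whereas counts within gene lists moved by more in many settings. Of 143 results on single genes, 88 kept their direction and call under every alternative. With genes kept at 5 CPM or more in 3 libraries, at least 2-fold changes numbered 815 with siBRD8-6, 1242 with siBRD8-36, 258 with both, 1081 between the siRNAs and 99 against TIP60, and 1391 genes responded lower in SW480 than in HCT116. Thinned counts gave 1507 differences between lines, 883 higher, and no filter 1013 higher. With limma on log2(TPM + 1), siBRD8-6 gave 1371 lower and 873 at least 2-fold, siBRD8-36 1907 and 1144, and shared changes numbered 3220 higher, 560 lower and 238 at least 2-fold. The direct siRNA difference had 885 at least 2-fold, the line difference 288 lower, and the TIP60 difference 859 genes, 556 higher, 303 lower and 68 at least 2-fold. With log2(TPM + 0.25) the lower counts were 1369 and 1931, shared changes 3262 higher and 554 lower, the line difference 254 lower, and the TIP60 difference 832, 539, 293 and 101. With centred TPM, at least 2-fold counts were 623, 946, 160 (shared) and 891 (between siRNAs), shared calls 2682, 1235 higher and 1447 lower, line differences 1555, 822 higher and 205 at least 2-fold, and TIP60 differences 909, 469, 440 and 66.

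Changes of TIP60 subunits and mitochondrial mRNAs that reversed were as follows (mean log2 fold change). They were, with log2(TPM + 1) KAT5 0.13, EPC1 0.16, MEAF6 0.14, DMAP1 0.27, RUVBL1 0.0857, ACTL6A 0.0446, MRGBP 0.22, MORF4L2 0.0636, VPS72 0.13, MT-CO1 0.0231 and MT-ND1 0.0246. With log2(TPM + 0.25) KAT5 0.14, EPC1 0.17, MEAF6 0.14, DMAP1 0.28, RUVBL1 0.0862, ACTL6A 0.0447, MRGBP 0.23, MORF4L2 0.0637, VPS72 0.13, MT-CO1 0.0232 and MT-ND1 0.0246 reversed. With centred TPM EP400 −0.0302 and DMAP1 0.0398 reversed. With length offsets EP400 −0.0501 reversed. With GC offsets EPC1 0.0228, MEAF6 0.0228 and RUVBL2 −0.15 reversed. With library totals alone MEAF6 0.0202, DMAP1 0.05603 and MRGBP 0.0599 reversed. List medians changed sign with both TPM settings for CDK inhibitors, TIP60 subunits, YAP targets, tRNA synthetases, hypoxia, mitochondrial and ribosome biogenesis genes, with library totals alone for tRNA synthetases, hypoxia and ribosome biogenesis, with length offsets for mitochondrial mRNAs, and with the 5 CPM minimum for histones; those of the replication, mitotic, repair and WNT lists kept their sign throughout. The cause was not tested.

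Leaving out 1 library gave 3565 to 4095 shared changes (1660 to 1954 higher, 1905 to 2158 lower, 396 to 467 at least 2-fold). Line differences ranged from 834 to 1798 higher and 724 to 1283 lower, and without SW480 control replicate 3 were 834 and 1283. With the replicate block 4078 genes were shared (1953 higher, 2125 lower), and GADD45B and COL4A2 were among the genes not called; same-numbered libraries correlated by −0.162 to 0.0553, not every library correlated best with its own number, and the samples were not treated as paired.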
